A study of Rattus norvegicus with 24 samples.

Results

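MHC class II and antigen presentation were followed through 6 genes of rat tibialis anterior (TA) muscle during daily resistance training. The genes were Cd74, RT1-Da, RT1-Db1, RT1-Ba, RT1-Bb and B2m, picked by their gene symbol. They were 6 of the 15273 gene symbols with values and were represented by 15 of 20027 transcripts, which were summed per gene. Each gene's level is given as a length-scaled value of the transcripts-per-million (TPM) type, divided by a scaling factor per muscle, and is called the scaled value.

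Bulk mRNA was measured in both TA muscles of 12 male Wistar rats, 3 per time point, 1 h after the last bout of 2, 10, 20 or 30 days of daily SpillOver training. In this model an implanted pulse generator drives the left TA against the plantarflexors, and the right TA is not driven. The trained groups were the left TA of 3 rats at each time point, and the control was the contralateral right TA of the same 12 rats, left unstimulated in the implanted animal for the same number of days. The electrode leads ran to the left hind limb alone, and no sham-operated muscle was among the samples used. Training and the one-sided implant therefore cannot be told apart. The animals carried no transgene, and the labels give no age. Each muscle was 1 sample from 1 animal, so the spread below is between animals.

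MHC class II molecules are surface dimers of an alpha and a beta chain that show peptides from ingested material to CD4+ T cells. They are made mainly by macrophages, dendritic cells and B cells, while resting muscle fibers make little. In the rat, RT1-Da and RT1-Db1 encode the alpha and beta chains of the RT1-D molecule, and RT1-Ba and RT1-Bb those of RT1-B. Cd74, the invariant chain, holds new class II dimers and blocks their groove until they reach the endosome. B2m, beta-2-microglobulin, is the light chain of MHC class I, which nearly all cells display, and so belongs to the other arm of antigen presentation. In whole muscle, more cells of a type and more RNA per cell cannot be told apart.

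The class II genes and B2m are known to share a promoter layout, an X box followed by a Y box, through which the factors RFX, CREB, NF-Y and the coactivator CIITA act. The stretches below show these letters upstream of the start of each member, since the 6 genes are compared as a set that this layout joins. They were read from RefSeq promoter windows on the GRCr8 assembly, which held all 6 members. Capitals mark the Y box core (CCAAT, or ATTGG on the other strand), the X2 or CRE-like core (TGACG, or CGTCA on the other strand), the X box letters (AG, 2 bases, AC, 1 base, GATG) and the interferon-stimulated element (GAAA, 2 bases, GAAA). Each was searched on both strands. The X box letters were chosen after the sequences had been seen.
RT1-Da (chr20:4515326-4515374, + strand): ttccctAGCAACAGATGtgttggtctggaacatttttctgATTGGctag
RT1-Db1 (chr20:4560234-4560282, - strand): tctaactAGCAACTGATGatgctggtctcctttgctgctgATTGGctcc
RT1-Ba (chr20:4576974-4577022, + strand): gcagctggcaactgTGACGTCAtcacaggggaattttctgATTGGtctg
RT1-Bb (chr20:4604171-4604219, - strand): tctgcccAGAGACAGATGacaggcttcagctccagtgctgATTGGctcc
Cd74 (chr18:56526981-56527025, + strand): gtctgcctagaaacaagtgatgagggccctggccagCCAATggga
B2m (chr3:129549176-129549274, + strand): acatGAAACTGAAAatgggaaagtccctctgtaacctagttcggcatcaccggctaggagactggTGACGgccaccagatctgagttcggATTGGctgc

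All 6 windows held a Y box core, as did 37.5% of all 33469 promoter windows of the same length. In the RT1 genes the ATTGG shown began 49 bases before the start of RT1-Da, 80 before RT1-Db1, 43 before RT1-Ba and 61 before RT1-Bb. In B2m it began 64 bases before the start, and in Cd74 the core stood farther out, 189 bases before it, and on the other strand. The X box letters occurred in RT1-Da, RT1-Db1 and RT1-Bb, with 23, 22 and 22 bases between them and the Y box core. They were found in 0.95% of all windows, and X box letters with a Y box core 20 to 25 bases on were found in 7 windows, 3 of them of members. This spacing was not among the planned motifs and spans the 22 and 23 bases of the members, so the count is no test. The X2 or CRE-like core was found in RT1-Ba and B2m and in 21.2% of all windows. B2m also held the interferon-stimulated element, 150 bases before its start, as did 3.92% of all windows. The gamma-activated element (TTC, 3 bases, GAA) was found in 8.87% of windows and in no member. TGACG and CGTCA overlap in RT1-Ba, where they form 1 palindrome, and these matches are descriptions of letters only.

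In the authors' files, on the Rnor_6.0 assembly, the RT1 genes lie together on chromosome 20, with RT1-Bb at 4043741 to 4049712, RT1-Ba at 4066132 to 4070722, RT1-Db1 at 4087618 to 4097191 and RT1-Da at 4127644 to 4132617. Cd74 lies on chromosome 18 at 56071478 to 56080850 and B2m on chromosome 3 at 114087287 to 114093310. Alpha and beta genes of each pair lie on opposite strands.

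The 5 class II genes were higher in trained than in contralateral muscles at every time point measured. Against the 12 contralateral muscles, Cd74 rose 2.22-fold after 2 days, 2.25-fold after 10, 2.11-fold after 20 and 2.25-fold after 30 days, as ratios of mean scaled values. The RT1 chains rose between 1.88-fold and 2.65-fold. B2m rose less, 1.42-fold at 10 days, 1.49-fold at 20 and 1.47-fold at 30 days, and its 1.14-fold difference at 2 days did not pass the test. In limma, fitted across 11196 genes with Benjamini-Hochberg adjustment, 5 of the 6 genes passed an adjusted p of 0.05 at 2 days and all 6 did at 10, 20 and 30 days, all of them upward. The share of all tested genes called higher was 15.4% at 2 days, 15.6% at 10, 11.7% at 20 and 11.1% at 30 days. The 5 class II genes were called higher at all 4 time points, as were 5.24% of genes.

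Cd74, the invariant chain, had scaled values from 19.6 to 45.3 in the 12 control muscles, with a median of 29.4. In trained muscles it reached 42.1, 80.8 and 79.1 after 2 days. The first of these 3 muscles lay inside the control range and the other two lay far above it. The values were 89.2, 71.9 and 43.8 after 10 days, and again 1 of the 3 lay inside the control range. They were 61.7, 59.2 and 71.3 after 20 days and 59.0, 72.4 and 73.7 after 30 days, and all 6 of these muscles lay above every control. The log2 fold changes, on the scale of log2(value + 1), were 1.12 (SE 0.25, limma adjusted p = 0.00126), 1.14 (adjusted p = 0.001), 1.11 (adjusted p = 0.00192) and 1.2 (adjusted p = 0.00114) at the 4 time points.

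**Figure D1:**
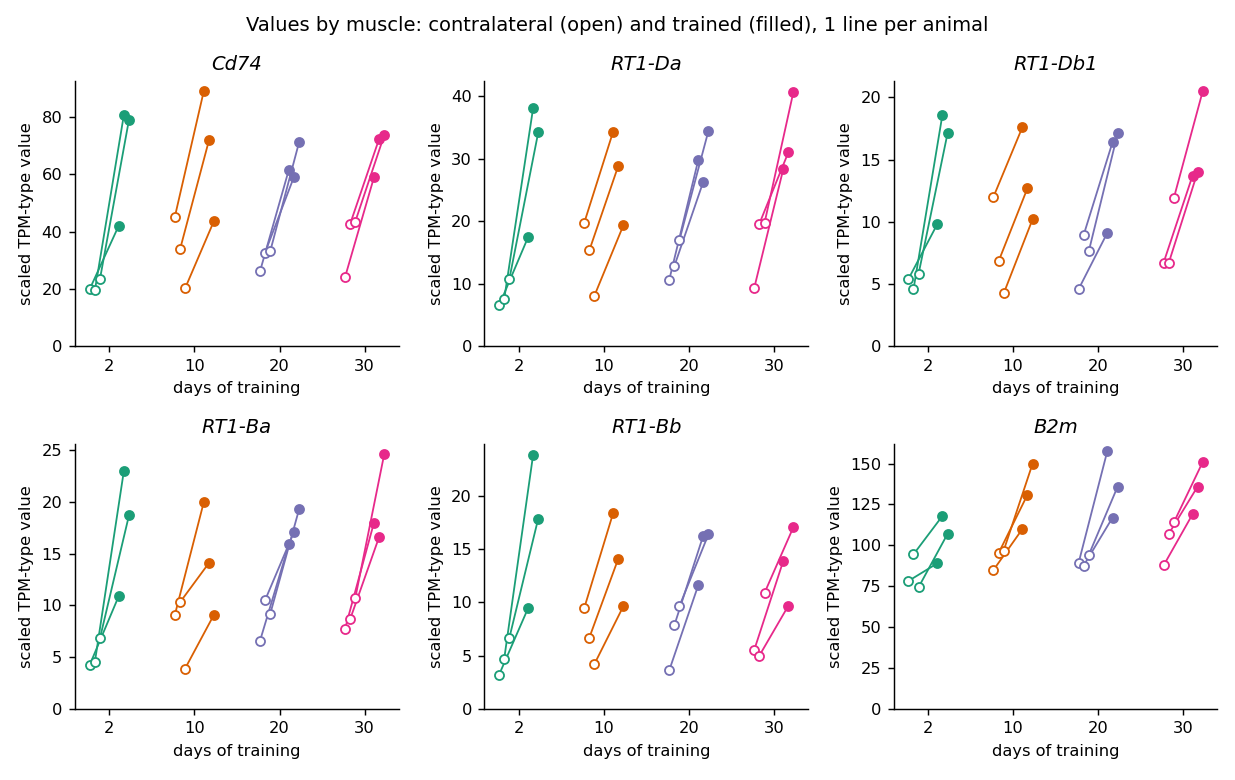
Scaled TPM-type value (vertical axis, starting at 0) of each gene against days of training, with the contralateral muscle as an open point, the trained muscle as a filled point and 1 line per animal. Every line rises, 12 of 12 in each panel, and the lines of B2m are the flattest, with a median trained over control ratio of 1.35.

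RT1-Da, the alpha chain of RT1-D, was the most abundant of the 4 chains. Its control muscles lay between 6.50 and 19.7, with a median of 11.8. After 2 days the trained muscles had 17.4, 38.1 and 34.2, and after 10 days 34.3, 28.8 and 19.3. They had 29.7, 26.3 and 34.4 after 20 days and 28.3, 31.0 and 40.7 after 30 days. As for Cd74, 1 trained muscle at 2 days and 1 at 10 days fell within the controls, and the groups were separate at 20 and 30 days. RT1-Da had log2 fold changes of 1.15, 1.07, 1.22 and 1.36 (SE 0.28 each, limma adjusted p from 0.00123 to 0.00569).

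RT1-Db1, the beta chain that pairs with RT1-Da, ran from 4.23 to 12 in control muscles, with a median of 6.69. Trained muscles had 9.81, 18.6 and 17.1 after 2 days, 17.6, 12.7 and 10.2 after 10 days, 9.13, 16.4 and 17.1 after 20 days and 13.7, 14 and 20.5 after 30 days. The groups overlapped at 2, 10 and 20 days and were separate at 30 days. Its log2 fold changes were 1.02, 0.87, 0.93 and 1.12 (SE 0.25 each, limma adjusted p from 0.00265 to 0.0111). At 20 days the call was lost without replicate 2 (0.81, adjusted p = 0.0743) or without replicate 3 (0.78, adjusted p = 0.0776), and at 10 days with the most abundant transcript alone (0.74, adjusted p = 0.0589).

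RT1-Ba, the alpha chain of RT1-B, had control values from 3.89 to 10.7, with a median of 8.20. Its trained muscles had 10.9, 23 and 18.7 after 2 days, all of them above every control. They had 20.0, 14.1 and 9.11 after 10 days, where the lowest fell among the controls. After 20 days they had 15.9, 17.1 and 19.3, and after 30 days 18, 16.6 and 24.6, again above every control. RT1-Ba had log2 fold changes of 1.09, 0.82, 1.14 and 1.30 (SE 0.26 each, limma adjusted p from 0.000765 to 0.0171).

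RT1-Bb, the beta chain of RT1-B, had control values from 3.21 to 10.9, with a median of 6.11. Its trained muscles had 9.45, 23.9 and 17.9 after 2 days, 18.4, 14.1 and 9.64 after 10 days, 11.6, 16.3 and 16.4 after 20 days and 13.9, 9.69 and 17.1 after 30 days. The groups were separate at 20 days only. The log2 fold changes were 1.27, 1.04, 1.14 and 1.01 (SE 0.28 each, limma adjusted p from 0.00138 to 0.0117). At 30 days the call was lost without replicate 1 (0.98, adjusted p = 0.051) or without replicate 3 (0.84, adjusted p = 0.099).

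B2m was the most abundant member, with 74.4 to 114.0 in control muscles and a median of 91.6. After 2 days the trained muscles had 89.0, 118.0 and 107.0, which overlapped the controls, and the log2 fold change was 0.18 (95% interval -0.07 to 0.44, limma adjusted p = 0.266). The values were 110.0, 131.0 and 150.0 after 10 days, 158.0, 117.0 and 136.0 after 20 days and 119.0, 136.0 and 151.0 after 30 days. At 20 and 30 days all trained muscles were above all controls. B2m passed at each of these, with log2 fold changes of 0.50, 0.56 and 0.56 (SE 0.12 each, adjusted p = 0.00322, 0.00144 and 0.002). On the values as deposited, where the median of all genes at 30 days moved from -0.01 to -0.18, the change at 30 days was 0.33 and did not pass (adjusted p = 0.0728).

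Counted together, the members with all 3 trained muscles above all 12 controls numbered 1, 0, 5 and 5 at the time points in order. The same separation was seen in 8.57%, 10%, 8.23% and 7.48% of the tested genes. Trained replicate 1 of 2 days and trained replicate 3 of 10 days were the lowest of their group for all 5 class II genes. Separation was also missed through replicate 1 of 20 days for RT1-Db1, replicate 2 of 30 days for RT1-Bb, replicates 1 and 3 of 2 days for B2m and replicate 1 of 10 days for B2m. Single muscles decided several calls. Without trained replicate 2 of 2 days 2 members passed there, and RT1-Da, RT1-Db1 and RT1-Ba had 0.94, 0.85 and 0.88 (limma adjusted p = 0.0625, 0.0615 and 0.0531). Without trained replicate 1 of 10 days 2 members passed there, and RT1-Da, RT1-Db1, RT1-Ba and RT1-Bb had 0.89, 0.68, 0.57 and 0.84 (adjusted p = 0.0642, 0.118, 0.19 and 0.0777). Without trained replicate 2 of 10 days RT1-Ba alone was lost (0.81, adjusted p = 0.0651). Control muscles also differed among themselves, by 2.31-fold from lowest to highest for Cd74 and by 3.4-fold for RT1-Bb, but by 1.53-fold for B2m.

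Each trained muscle could be set against the other TA of the same animal. All 6 genes were higher in the trained muscle in 12 of 12 animals, also on the values as deposited, as were 8.45% of all tested genes on the scaled values. For Cd74 the ratio of trained over contralateral muscle had a median of 2.14 and ran from 1.70 to 4.12. RT1-Da had a median ratio of 2.23 and a range of 1.58 to 5.06, and RT1-Bb 2.20 and 1.57 to 5.07. B2m had a median of 1.35 and a range of 1.14 to 1.77. The highest ratio of each class II gene was that of replicate 2 of 2 days, and the highest of B2m was that of replicate 1 of 20 days. Replicate 1 of 2 days had a Cd74 ratio of 2.10, within the range of later days.

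Within animals the mean log2 difference was 1.14 ± 0.37 (SD, n = 12) for Cd74 and 0.45 ± 0.16 for B2m. The change in B2m was the smaller in 12 of 12 animals, by 0.69 on average, in an exact two-sided permutation test over signs (p = 0.000488, the smallest this test can give, and 0.00244 after Benjamini-Hochberg adjustment over 5 comparisons with Cd74). On the plain log2 ratio, without the added 1, the gap to B2m was 0.72 with the same p. For RT1-Da, RT1-Db1, RT1-Ba and RT1-Bb the differences from Cd74 on the plain log2 ratio were -0.10 ± 0.21, 0.08 ± 0.21, -0.03 ± 0.29 and -0.08 ± 0.26 (SD, n = 12), which the exact permutation test did not separate from 0 (adjusted p = 0.31, 0.339, 0.773 and 0.404). For RT1-Db1 alone the difference passed with the added 1 (0.16, exact permutation adjusted p = 0.0427), a scale that shrinks changes of low values more. These comparisons were chosen after the values had been seen.

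**Figure D2:**
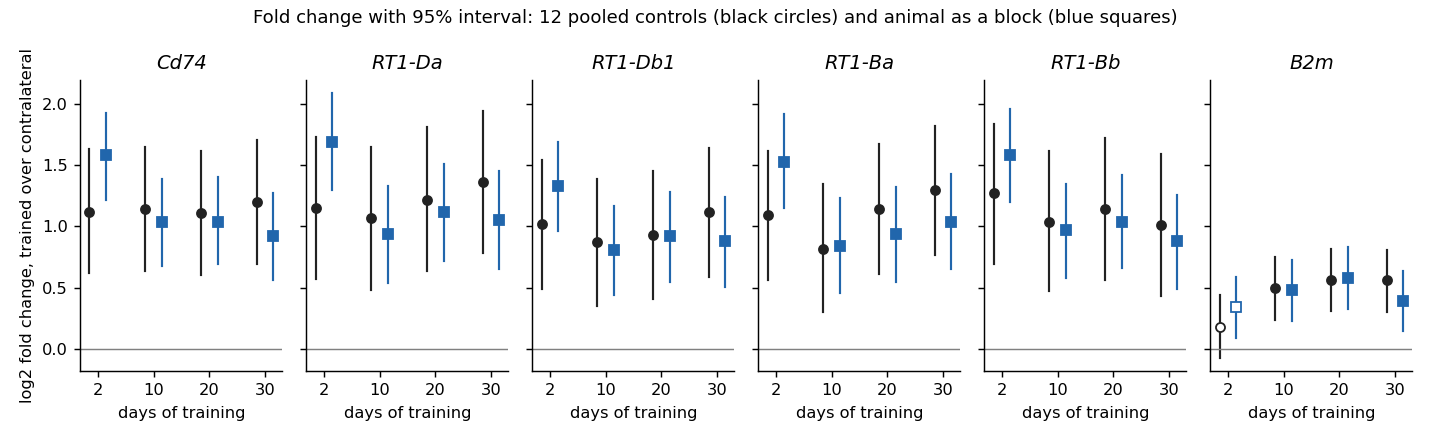
Log2 fold change of trained over contralateral muscle at each time point, with its 95% interval, from the fit with 12 pooled controls (black circles) and from the fit with animal as a block (blue squares). Open symbols did not pass an adjusted p of 0.05. The open symbols are those of B2m at 2 days. The block values of the class II genes at 2 days, 1.33 to 1.69, stand above those of later days. Control means of these genes were lowest at 2 days.

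With the 3 controls of the same day in place of all 12, the folds stayed upward but fewer passed. The count of members past the threshold was 5 at 2 days, 3 at 10, 4 at 20 and 3 at 30 days, with 10.8%, 10.7%, 8.34% and 5.8% of all genes called higher in that fit. At 10 days Cd74, RT1-Da and B2m passed, and at 30 days Cd74, RT1-Da and RT1-Ba passed. Control replicate 1 of 30 days stood apart among the controls, with 44.2% of its total in mitochondrial transcripts against 28.1 to 35.0% in the other 11. The 3 trained muscles of 30 days had a like share, 40.4, 43.6 and 44.6%, and the other trained muscles 23.7 to 36%. The part of this share in the 30-day results was not tested. Without it, 0 of 6 members passed against the 2 remaining controls of 30 days, in limma, and Cd74 had a log2 fold change of 0.65 (adjusted p = 0.21). With the other 11 controls pooled, the count at 30 days was 6.

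Trained groups were also compared with each other. Between the time points, members differed by -0.27 to 0.47 on the log2 scale, and 0 of 6 passed in any of the 6 limma contrasts. Of all genes 1.93%, 8.05% and 15% were called at 10, 20 and 30 against 2 days, 0.17% and 3.94% at 20 and 30 against 10 days, and 0.0357% at 30 against 20 days. Unadjusted p under 0.05 was reached by 1 member, B2m, at 20 against 2 days (0.38, 95% interval 0.06 to 0.70, adjusted p = 0.132) and at 30 against 2 days (0.37, interval 0.05 to 0.69, adjusted p = 0.105). For Cd74 the 30 against 2 days difference was 0.07, with an interval of -0.57 to 0.72. When each trained muscle was first set against its own contralateral muscle, the Cd74 difference from 2 days was downward at each later time, at -0.54 at 10 days (interval -1.04 to -0.04), -0.53 at 20 days (-1.03 to -0.03) and -0.66 at 30 days (-1.16 to -0.16). In that fit 5, 4 and 3 of 6 members had an unadjusted p under 0.05 at 10, 20 and 30 against 2 days, all of them class II genes with a smaller change later. After limma's adjustment 0 passed (lowest adjusted p = 0.374, 0.232 and 0.139), with 0.0625%, 1.73% and 2.8% of all genes called.

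In the contralateral muscles alone, a limma F test over the 4 time points called 0 of the 6 members and 0.0666% of 10517 genes (11% at an unadjusted p under 0.05, which no member reached). Cd74 had the lowest p (unadjusted 0.0873, adjusted 0.514). Its control means were 21.1 ± 2.18, 33.1 ± 12.5, 30.6 ± 3.94 and 36.8 ± 11 (SD, n = 3 each) at 2, 10, 20 and 30 days.

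Across the 12 control muscles the class II genes varied together. Over their 10 pairs Pearson's r of the log2 values ran from 0.72 (Cd74 and RT1-Bb) to 0.974 (Cd74 and RT1-Da), and Spearman's rho for these pairs was 0.72 and 0.958. The permutation test, with 100000 permutations and adjustment over 15 pairs, gave adjusted p = 0.017 or lower for each of the 10 pairs on both measures. Without the 2 muscles farthest from the median of the first gene, r was 0.966 for Cd74 and RT1-Da, and it was lowest, at 0.544, for Cd74 and RT1-Bb. The 5 pairs with B2m had r from 0.243 to 0.501 and none passed (adjusted p = 0.13 or higher). Time points held 3 control muscles each, too few to repeat this within a time point, and all values come from the same libraries. These correlations were chosen after the values had been seen.

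The proportions of the chains overlapped between control and trained muscles. RT1-Da over RT1-Db1 had a median of 1.75 in control and 2.00 in trained muscles (1.21 to 2.93 and 1.60 to 3.26), and was higher in the trained muscle in 9 of 12 animals. RT1-Ba over RT1-Bb had medians of 1.18 and 1.12 (0.927 to 1.81 and 0.945 to 1.71). Among trained muscles this ratio was 1.29 to 1.71 at 30 days, above the 0.945 to 1.15 of 2 and 10 days, a difference that was not tested. Cd74 was close in level to the 4 chains together, at 0.884 of their sum in control and 0.893 in trained muscles by the medians, on the length-scaled values. B2m over the 5 class II genes together had a median ratio of 1.35 in control and 0.88 in trained muscles. The ranges overlapped (0.89 to 2.38 and 0.611 to 1.63). That ratio was lower in the trained muscle in 12 of 12 animals.

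Of the 15 transcripts, 11 passed the filter on low values and 1 transcript carried most of each gene. The main Cd74 transcript made up 80.8% of the gene and a second one the rest. The main one rose at all 4 time points (log2 fold changes 1.22, 1.2, 1.10 and 1.17, limma adjusted p from 0.00113 to 0.00373). The second passed at 10, 20 and 30 days (0.84, 1.03 and 1.21) and at 2 days had 0.54 (adjusted p = 0.186). The main transcript held 99.4% of RT1-Da, 97.2% of RT1-Ba, 93.1% of RT1-Bb and 75.9% of RT1-Db1, and B2m has 1 transcript. The next transcript of RT1-Db1, with 14.5% of the gene, passed at 20 days only (0.82, adjusted p = 0.0353). Another, with 4.57%, passed at 2 days only (0.68, adjusted p = 0.00664), and the last, with 5.06%, at none. RT1 genes resemble each other in sequence, and how reads shared between them were divided was not stated, so their split is uncertain.

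The class II pathway around these genes moved unevenly. Of the 25 listed accessory genes and regulators, 21 had values and 17 were tested. At 2, 10, 20 and 30 days 7, 7, 6 and 6 rose, and 1, 1, 2 and 2 fell, with median log2 fold changes of 0.06, 0.07, 0.14 and 0.26 beside -0.01, -0.03, -0.03 and -0.01 over all genes. The shares that rose were 41.2%, 41.2%, 35.3% and 35.3%, beside 15.4%, 15.6%, 11.7% and 11.1% of all genes. The genes that passed upward at all 4 time points against the pooled controls were Ctss, Lgmn, Ifi30, Cd63, Cd81 and Cd82. Ctss (cathepsin S, which trims the invariant chain) went from 1.47 ± 0.667 (SD, n = 12) in control to 3.05 ± 0.709 (n = 3) at 2 days, a log2 fold change of 0.75 (adjusted p = 0.011). Lgmn, an endosomal protease, had 10.2 ± 0.477 in control and 23.7 ± 7.04 at 2 days, and its log2 fold changes fell from 1.11 at 2 days to 0.65 at 30 days, each past the threshold. Ifi30, a thiol reductase that unfolds antigens, rose by 0.97, 1.00, 0.77 and 0.75. The tetraspanin Cd63, found on late endosomes in most cells, rose 1.82 at 2 days (336.0 ± 130 against 90.2 ± 9.86 in control) and had 0.44 at 30 days, and the tetraspanin Cd82 had 1.16, 1.30, 0.66 and 0.59. With animal as a block the 30-day calls of Cd63 and Cd82 were lost (adjusted p = 0.103 and 0.0538), and 4 genes of the list rose at 30 days in place of 6.

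The class II loading chaperones did not pass the test. RT1-DMa, the alpha chain of the DM peptide editor, had 1.73 ± 0.77 in control and means of 2.45 to 3.00 in trained groups (log2 fold changes 0.26 to 0.54, adjusted p from 0.251 to 0.62). RT1-DMb, its beta chain, had 5.32 ± 1.75 in control and log2 fold changes of 0.06, -0.39, 0.06 and 0.21. Ciita, the class II coactivator, had a mean of 0.182 in control and did not reach the level for testing, nor did RT1-DOa, RT1-DOb and RT1-Db2. Of the factors that bind the X and Y boxes, Rfx5, Rfxap, Rfxank, Nfya and Creb1 did not pass at any time point. Nfyb, a Y box factor subunit, fell at all 4 (from 11.1 ± 1.21 to 6.44 ± 0.721 at 2 days, log2 fold changes -0.70, -0.73, -0.69 and -0.69), and it was lower in the trained muscle of every animal. Nfyc fell at 20 and 30 days (-0.34 and -0.35), and with animal as a block the second of these was -0.21 (adjusted p = 0.22).

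**Figure D3:**
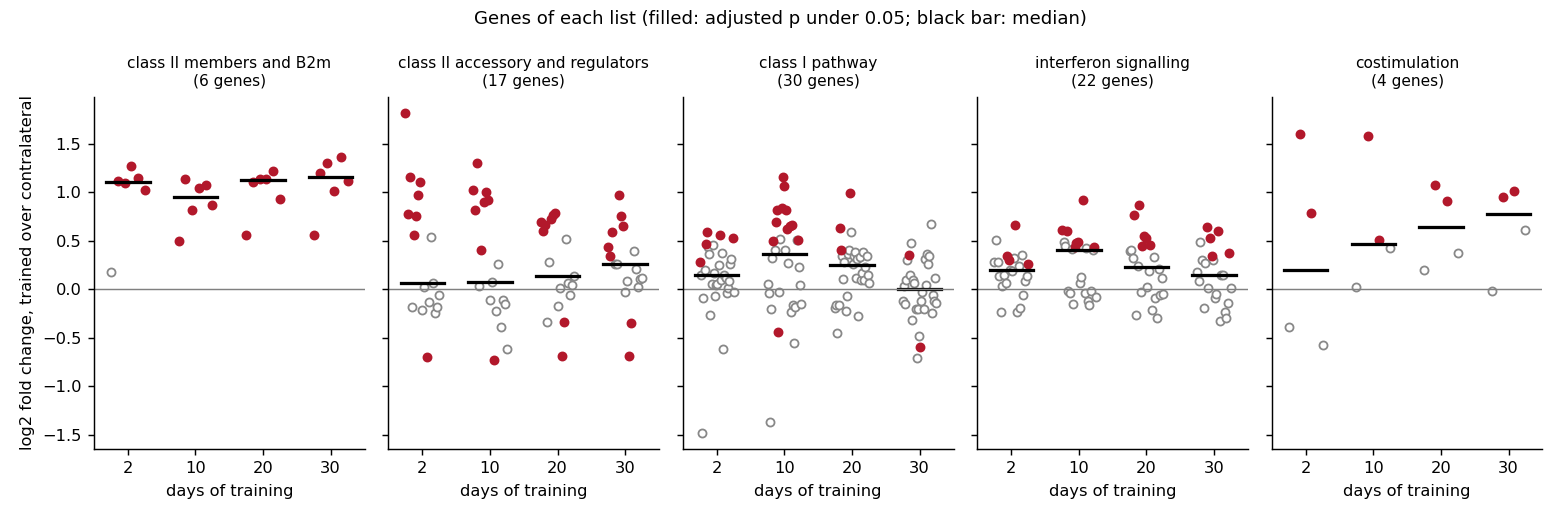
Log2 fold change of trained over contralateral muscle for every tested gene of each list at each time point, with filled points past an adjusted p of 0.05 and a black bar at the median. The median of the 5 class II genes with B2m is 1.11, 0.96, 1.12 and 1.16 at 2, 10, 20 and 30 days, and the medians of the accessory, class I and interferon lists stay between 0.00 and 0.41. Those of the costimulation list, with 4 tested genes, are 0.20, 0.46, 0.64 and 0.78.

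The class I pathway, to which B2m belongs, showed most calls at 10 days. Of 30 tested genes 5, 11, 3 and 1 rose and 0, 1, 0 and 1 fell at the 4 time points, with medians of 0.15, 0.36, 0.24 and 0.00. The shares that rose were 16.7%, 36.7%, 10.0% and 3.33%, beside 15.4%, 15.6%, 11.7% and 11.1% of all genes, so the share was above that of all genes by more than 2 percentage points at 10 days alone. With animal as a block 3, 7, 3 and 1 rose, or 10.0%, 23.3%, 10.0% and 3.33%, beside 11.8%, 12.1%, 9.94% and 7.21% of all genes. Among 15 tested RT1 class I heavy chain genes 1, 7, 1 and 0 rose and 0, 0, 0 and 1 fell. With animal as a block 1, 4, 2 and 0 rose. Many of these genes resemble each other in sequence, so their split is uncertain. At 10 days RT1-CE4, RT1-CE5 and RT1-M3-1 passed in both fits, with 0.58, 0.58 and 0.62 in the block (adjusted p = 0.00885, 0.0322 and 0.0395). RT1-CE1 had 3.62 ± 1.94 in control and 8.64 ± 2.36 at 10 days (1.16, adjusted p = 0.01), but 0.45 (adjusted p = 0.14) with animal as a block. RT1-CE10 (1.06, adjusted p = 0.022) and RT1-A2 (0.84, adjusted p = 0.02) at 10 days lost their calls in the same fit, with 0.35 (adjusted p = 0.094) and 0.49 (adjusted p = 0.081). Psmb9, an immunoproteasome subunit, rose at 10 days from 2.14 ± 0.579 to 4.48 ± 0.703 (0.82, adjusted p = 0.0003), and kept that call with animal as a block. Tap1, a subunit of the peptide transporter, passed at 10 days (0.51, adjusted p = 0.00853) but had 0.34 (adjusted p = 0.113) with animal as a block, and Pdia3, a folding enzyme of the endoplasmic reticulum and of class I loading, passed at all 4 time points (0.47, 0.50, 0.40 and 0.35), of which the block kept the first alone.

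Of 22 tested interferon signalling genes 4, 7, 6 and 5 rose and 0 fell in limma, with medians of 0.19, 0.41, 0.22 and 0.15. The shares that rose, 18.2%, 31.8%, 27.3% and 22.7%, were near that of all genes at 2 days and above it later. With animal as a block 2, 5, 6 and 2 rose, or 9.09%, 22.7%, 27.3% and 9.09%, which is above the share of all genes in that fit by under 2 percentage points at 30 days and below it at 2 days. Ifngr1 and Ifngr2, the chains of the interferon-gamma receptor, passed at all 4 time points against the pooled controls, Ifngr1 from 17.7 ± 2.30 to 25.8 ± 2.94 at 30 days (0.53, adjusted p = 0.00123). With animal as a block Ifngr1 did not pass at 2 and 10 days (adjusted p = 0.102 and 0.0528), nor Ifngr2 at 2 and 30 days (adjusted p = 0.257 and 0.0701). Irf8, a factor of macrophage and dendritic cell development, also passed at all 4 (0.66, 0.92, 0.46 and 0.60), from a control mean of 0.367, and lost 20 days with the block (adjusted p = 0.0774). Gbp2, an interferon-induced GTPase, passed at 10 and 20 days (0.60 and 0.76). Ifit2 passed at 20 and 30 days (0.87 and 0.64, the second with adjusted p = 0.0707 in the block fit) and Bst2 at 10 days (0.61, adjusted p = 0.046), which became 0.19 (adjusted p = 0.5) with animal as a block. Isg15, Mx2, Ifit3 and Cxcl9, which interferons induce, did not pass at any time point. Among 4 tested costimulation genes, Cd83, a marker of mature antigen-presenting cells, and Cd44, an adhesion receptor that many cell types carry, rose at all 4 time points. Cd44 rose 1.60, 1.58, 1.07 and 0.95, the last losing its call with animal as a block (0.74, adjusted p = 0.11), while Cd80, Cd86 and Cd40 lay below the level for testing.

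Macrophage markers rose at the same time points as the class II genes. Of 14 tested macrophage markers 12, 13, 14 and 13 rose at 2, 10, 20 and 30 days and 0 fell, with medians of 1.21, 1.29, 1.08 and 1.16. The shares that rose were 85.7%, 92.9%, 100% and 92.9%, beside 15.4%, 15.6%, 11.7% and 11.1% of all genes. The sum of the 17 macrophage markers with values was 24.8 to 56.3 in control muscles, 89.1 to 220.0 at 2 days, 88.0 to 168.0 at 10, 108.0 to 123 at 20 and 104.0 to 136.0 at 30 days. The sum of the 5 class II genes was 39.4 to 96.6 in control, 89.6 to 184.0 at 2 days and 133.0 to 177.0 at 30 days. Of the tested markers Lyz2 (lysozyme) rose most at 2 days, by 2.23, and Lgals3 (galectin-3) at 10 days, by 2.04. C1qa, a complement subunit, and Cd68, a lysosomal protein, rose at all 4 time points. The class II sum over the macrophage sum had a median of 1.62 in control and 1.07 in trained muscles. It was lower in the trained muscle in 12 of 12 animals. The macrophage sum leans on Lyz2, its highest marker (means of 13.7 in control and 71.6 at 2 days). The median marker change lay within the range of the class II genes at 2, 20 and 30 days. At 10 days it lay above (1.29 against 0.82 to 1.14). Over summed pan-leukocyte markers the class II sum had medians of 13.9 in control and 11.8 in trained muscles. The ranges overlapped (7.47 to 19.7 and 9.02 to 15.7), and this ratio was higher in the trained muscle in 3 of 12 animals. The part of macrophage number in the class II change was not tested.

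**Figure D4:**
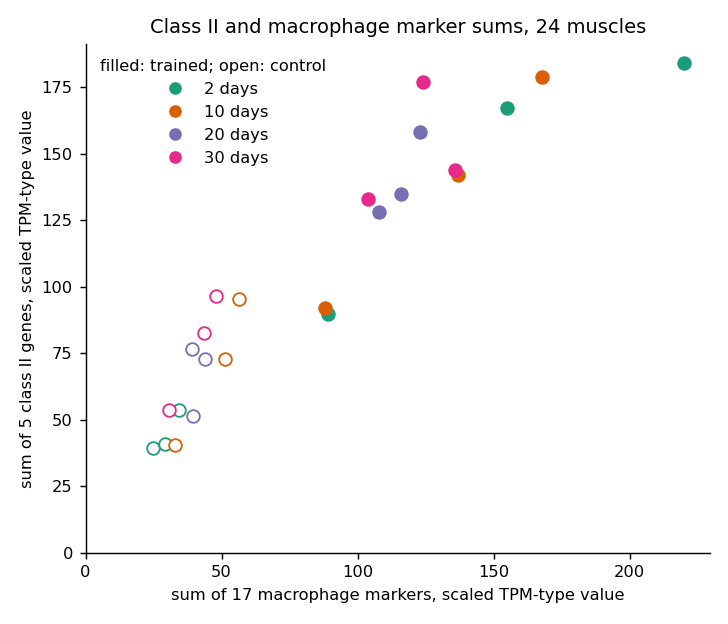
Sum of the 5 class II genes (vertical axis) against the sum of 17 macrophage markers (horizontal axis) in each of the 24 muscles, both as scaled TPM-type values, with open points for control and filled points for trained muscles. Control muscles stay below 96.6 and 56.3 on the 2 axes or reach them, and trained muscles extend to 184.0 and 220.0 and lie lower relative to the macrophage axis.

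Other carriers left little signal. Of the B cell markers, Cd79a and Cd22 had values and both were below 1 in every muscle. For T cells 6 of 7 markers with values were below 1 everywhere, the exception being Cd4, which rat macrophages also carry and which rose at 10, 20 and 30 days (1.16, 1.18 and 1.38). All 6 natural killer cell markers were below 1. For dendritic cells 6 of 9 markers with values, among them Flt3, Xcr1, Clec9a and Itgax, were below 1 throughout. The other 3 dendritic markers did not move together. Clec10a, which macrophages share, rose at all 4 time points (1.59, 1.56, 1.23 and 1.08). Zbtb46, a factor of classical dendritic cells, passed at 10, 20 and 30 days (0.60, 0.44 and 0.46), of which the animal block kept 10 days alone (adjusted p = 0.193 and 0.0576 at the later times). Cd1d1, a lipid-presenting molecule that also stands in the class I list, was lower in the trained muscle in 12 of 12 animals. It did not pass against the pooled controls (adjusted p from 0.0585 to 0.892), and with animal as a block it fell at all 4 time points (-1.11, -0.98, -0.83 and -0.54, adjusted p from 0.000433 to 0.0494). The sum of the 9 dendritic markers was higher in the trained muscle in 2 of 12 animals. Cd1d1 made up most of that sum, with a control mean of 27.2 beside 1.92 for Clec10a and 0.931 for Zbtb46. The sum thus mainly follows Cd1d1, while Clec10a and Zbtb46 were each higher in the trained muscle in 12 of 12 animals. Pan-leukocyte markers had a summed level of 2.76 to 6.32 in control and 7.83 to 19.8 in trained muscles, and 5, 3, 4 and 3 of 5 rose. These were 100%, 60.0%, 80.0% and 60.0%, beside 15.4%, 15.6%, 11.7% and 11.1% of all genes. Neutrophil markers, of which none was tested, had sums up to 2.85 in control and up to 1.63 in trained muscles.

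Of 4 tested mast cell markers 0, 4, 4 and 4 rose at 2, 10, 20 and 30 days, or 0, 3, 3 and 2 with animal as a block (Cma1 by 1.25, 1.40 and 1.85 at the last 3). Fibroblast markers rose as well (4, 6, 6 and 6 of 6). Of 8 endothelial markers 0, 3, 5 and 3 rose, and 1 fell at 2 days. None of 5 tested red blood cell genes passed at any time point in limma, and their sum ran from 376.0 to 1160.0 in control and from 354.0 to 843.0 in trained muscles. Muscle fiber markers were as the tissue label says, with a summed level of 53700 to 90800 over all muscles. Of 7 tested 1, 3, 2 and 1 rose and 3, 3, 3 and 2 fell, the largest change being that of Actn3, of fast fibers (-2.18 at 30 days). Over all genes 15.4%, 15.6%, 11.7% and 11.1% were called higher against the pooled controls. Beside these stood 0%, 37.5%, 62.5% and 37.5% of endothelial and 14.3%, 42.9%, 28.6% and 14.3% of muscle fiber markers. The shares were 0%, 100%, 100% and 100% for mast cell and 66.7%, 100%, 100% and 100% for fibroblast markers.

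The genes whose trained minus contralateral difference was most like that of the class II mean, over 12 animals and among 5859 genes, were Kdelr2 (Pearson's r 0.918), Cdc37l1 (0.91), Riok1 (0.907), Plaa (0.894), Sec24c (0.891), Nars1 (0.883), Rhog (0.872), Hspa5 (0.868), Psmd11 (0.856) and Ckap4 (0.853). The class II genes' own r with that mean was 0.872 to 0.964, but each gene is part of the mean, which raises its r. B2m, which is not part of the mean, had -0.0045, so its r cannot be compared directly with theirs. The shared shape was a larger difference at 2 days. Class II mean differences were 1.11, 2.05 and 1.47 in the 3 animals of 2 days. In the other 9 they were 0.81 to 1.22. The control mean of each class II gene was lowest at 2 days, at 21.1 for Cd74. Trained means of Cd74 were 67.3, 68.3, 64.1 and 68.4 at 2, 10, 20 and 30 days. Ckap4 was higher in the trained muscle in 12 of 12 animals, whereas Riok1 was higher in 3, so likeness in shape did not mean likeness in direction. The genes most like B2m were Wbp4 (0.842), Tmem199 (0.806), Nit1 (0.784), Ifngr2 (0.784) and AABR07029581.1 (0.779). These values are descriptions over animals that share libraries.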

How the data were processed

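RNA from both TA muscles of 12 rats (24 samples) had been poly-A selected and sequenced as paired reads by the authors, who used STAR within Partek Flow to place trimmed reads on Rnor_6.0 and then estimated Ensembl transcript levels. The deposited transcript table is labelled as normalized counts, and the study's methods name a median-of-ratios step. Its values are fractional and total 634431 in every sample, and the smallest value of sparse compact transcripts fell with their span (median 0.268 at 200 to 500 bases, 0.0934 at 1000 to 2000). The deposited values were therefore read as TPM-type, which is an inference. The authors also deposited a gene-level table of signal values. Neither holds counts, so depth and the precision it gives are unknown.

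Each sample's values were scaled by its median-of-ratios factor (0.778 to 1.14), summed per gene symbol, kept where at least 1 in at least 3 samples, and fitted as log2(value + 1) in limma 3.58.1 with 12 pooled controls and 3 muscles per trained group. Adjustment was Benjamini-Hochberg over all genes, threshold 0.05. The 2 muscles of an animal are paired by their labels. Their deviations correlated (median r 0.174 over 12 pairs, -0.00964 between animals). The script was first tested on simulated data. The 6 members and the gene lists were chosen with earlier results of these data known. Genes named are all members, at most 4 genes per list, those past the threshold with the largest change, and others where a list's account needs them. Alternatives are given below. The authors' own comparison columns (p, FDR, ratios) were not used.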

Additional observations from a re-analysis of the deposited data

Results flagged for a closer look

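Among list genes named above, 9 differences between trained groups passed limma's adjusted p of 0.05. Cd63 was lower than at 2 days by -0.80 at 10 days (adjusted p = 0.0293), -1.13 at 20 days (adjusted p = 0.000592) and -1.37 at 30 days (adjusted p = 5.9e-05). With animal as a block the last of these held (-1.26, adjusted p = 0.0124) and the first 2 did not (adjusted p = 0.389 and 0.0646). Gbp2 was higher at 20 than at 2 days by 0.62 (adjusted p = 0.0468, and 0.149 with animal as a block). Lgmn was lower at 30 than at 2 days by -0.46 (adjusted p = 0.0197, and 0.222 with the block). Psmb9 was lower at 30 days by -0.69 than at 2 days and by -1.14 than at 10 days (adjusted p = 0.0201 and 0.002, and 0.0918 and 0.0825 with the block). RT1-A2 and RT1-CE10 were lower at 30 than at 10 days by -1.55 and -1.54 (adjusted p = 0.0124 and 0.0446, and 0.311 and 0.821 with the block). No cause was tested for these differences, and 0 of the 6 members passed in the same limma contrasts.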

How the results depend on the processing

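Over 15 alternatives per time point, 270 of 300 values of the 5 class II genes stayed on their side of the threshold, 30 lost significance and 0 changed direction. Cd74 lost its call once, at 30 days, in the fit with time-matched controls and without control replicate 1 of 30 days. Animal as a replicate block changed no call of a member: 5, 6, 6 and 6 passed at 2, 10, 20 and 30 days (B2m at 2 days 0.34, adjusted p = 0.0513), and B2m at 2 days passed with the block on the values as deposited (0.48, adjusted p = 0.0442). Counts of members past the threshold fell with time-matched controls, to 3 at 10 and 3 at 30 days, and without control replicate 1 of 30 days to 3 at 10 and 0 at 30 days; this last alternative and the block on the values as deposited were chosen after seeing the data. Leaving out 1 trained muscle gave 2 to 5 members at 2 days (2 without replicate 2), 2 to 6 at 10 days (2 without replicate 1), 5 to 6 at 20 days and 5 to 6 at 30 days. In the fits between trained groups 0 members passed under any alternative.

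Genes changed numbered 3235, 3240, 2393 and 2304 in the main analysis at 2, 10, 20 and 30 days. They were 1654, 1420, 1064 and 1155 with a mean value of at least 10 and 1779, 1367, 1061 and 1295 in the gene-level table, where fewer genes were tested. Time-matched controls gave 2007, 1589 and 1121 at 10, 20 and 30 days, and 2008, 1579 and 852 without control replicate 1 of 30 days. Animal as a replicate block gave 1377 at 30 days, and 1791, 1685, 1388 and 838 on the values as deposited. Leaving out 1 muscle gave 1492 to 3496 genes at 2 days, 2130 to 3232 at 10, 1730 to 2402 at 20 and 1469 to 2438 at 30 days, the lowest without trained replicate 2 of 2 days, replicate 1 of 10 days and replicate 2 of 30 days. On the values as deposited 20.0% of calls at 30 days were upward against 54.0%, and 74.5% against 53.4% at 2 days; the cause was not tested. Depth is unknown, so counting error could not be separated from the spread between animals.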
